A study of Drosophila melanogaster with 4 samples.

Results

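The RNA exosome genes are the genes of the protein complex that degrades and trims RNA from its 3′ end. The 10 genes examined were picked out by their FlyBase symbols, by a rule that used no measured value: *Csl4*, *Rrp4*, *Rrp40*, *Mtr3*, *Rrp42*, *Rrp46*, *Ski6*, *Dis3*, *Rrp6* and *Mtr4*. The gene family itself was chosen with earlier results of these data known. All 10 genes were found among the 17023 counted. Poly(A)-selected RNA was sequenced from *Drosophila melanogaster* ovaries in 4 libraries, 2 from germline *aramis* RNAi and 2 from germline *bam* RNAi, which the series names as its developmental control. Both groups carried UAS-Dicer2, which strengthens RNAi, and NosGAL4, which drives expression in germ cells, so somatic cells of the ovary were not targeted by design. Females were fattened on yeast and dissected 1 to 3 days after eclosion. Nothing in the labels says whether the 2 libraries of a group came from separate cultures, so p-values measure only the spread between these libraries.

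In the exosome, a ring of proteins related to RNase PH carries a cap of RNA-binding proteins, and RNA is threaded through the central channel. In animals the ring and cap have no catalytic activity of their own, and the cleavage is done by the associated ribonucleases Dis3 and Rrp6. The helicase Mtr4 unwinds and feeds RNA to the nuclear complex, where a well-known substrate is the 3′ end of the 5.8S ribosomal RNA precursor, which links the exosome to ribosome biogenesis, a process named in the title of the series. *aramis* itself encodes a DEAD-box RNA helicase, listed in the annotation as *ais*.

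Total counts per library ran from 12977013 to 16754980, and the members had between 88 and 2824 counts each, far above the floor of 3 counts. *ais* had 117 and 153 normalised counts in *aramis* RNAi, against 910 and 323 in *bam* RNAi (log2 fold change -2.19, SE 0.56, DESeq2 adjusted p = 0.00186). This call was lost in 3 of 4 fits that left out 1 library, at adjusted p of 0.223 without *aramis* RNAi replicate 1, 0.0636 without *aramis* RNAi replicate 2 and 0.150 without *bam* RNAi replicate 1, where the log2 fold change was -1.26. *bam* had 50.3 and 72.7 in *aramis* RNAi, against 60.0 and 70.4 in the libraries labelled *bam* RNAi, so its groups overlapped (log2 fold change -0.09, SE 0.69, DESeq2 adjusted p = 0.948). Ovaries without RNAi were not analysed here, so the depletion of *bam* could not be checked. Germline markers had fold changes below 0 for 17 of 18 genes tested, 14 of them past the threshold, with a summed level of 1465 to 1699 CPM (counts scaled to the library total) in *aramis* RNAi and 4164 to 5740 in *bam* RNAi. None of the 18 was at 0 in any library, and *vas* and *nos* were not analysed here. In whole ovaries, fewer germ cells and less RNA per germ cell cannot be told apart. Of the muscle sheath markers, 10 of 10 had fold changes above 0 with 5 past the threshold, and they summed to 45099 to 46231 CPM in *aramis* RNAi and 17960 to 22909 CPM in *bam* RNAi. The hemocyte markers had 7 of 7 above 0 with 6 past it, at 4623 to 5904 CPM in *aramis* RNAi and 1362 to 3470 CPM in *bam* RNAi. The ovarian somatic markers had 7 of 14 below 0, and only *tj* passed the threshold, lower in *aramis* RNAi. Among all 11128 genes tested with DESeq2, 52.8% had fold changes below 0, 7.04% passed lower and 8.9% passed higher. The shares of the ovarian somatic markers thus stood near the background, and *slbo* was at 0 in at least 1 library. The 10 exosome genes summed to 212 to 223 CPM in *aramis* RNAi and 482 to 567 CPM in *bam* RNAi. What the difference in cell markers contributed to these sums was not tested. The sums also depend on scaling to the library total. Scaled that way, the 11128 genes tested had a median log2 value of -0.45, against -0.09 with the DESeq2 size factors.

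Of the 10 exosome genes, 1 passed an adjusted p of 0.05, *Dis3*, and it was lower in *aramis* RNAi. Among all 11128 genes tested with DESeq2, 15.9% passed in either direction and 7.04% were lower, so the share of members stood near the background. The edgeR quasi-likelihood test also called *Dis3* alone, against 10.5% of all genes in either direction and 4.74% lower. No member was higher past the threshold in DESeq2, against 8.9% of all genes, or in edgeR, against 5.74%, and none was higher at an unadjusted p under 0.05 in either test. Unadjusted p was under 0.05 for 3 members, *Dis3*, *Rrp6* and *Mtr4*, all lower in *aramis* RNAi, against 14.1% of all tested genes. The fold change was below 0 for 10 of 10 members, against 52.8% of tested genes, but it was above 0 for 10 of 10 when the libraries were scaled to the germline markers instead. Leaving out 1 library changed the count below 0 too, to 6 of 10 without *bam* RNAi replicate 2 and 7 of 10 without *aramis* RNAi replicate 2. It was 9 of 10 without *aramis* RNAi replicate 1 and 10 of 10 without *bam* RNAi replicate 1. The share of all genes below 0 was not computed for these fits, where the median over all tested genes ran from -0.11 to 0.01. A change of scaling shifts the fold changes of all genes nearly alike, so it cannot test where the members lie among other genes. The median log2 fold change was -0.45 over the members and -0.09 over all tested genes with the DESeq2 size factors, and 1.47 and 1.83 with germline-marker scaling, and 9 of 10 members lay below the median of all tested genes with either. Leaving out 1 library gave 6 of 10 without *bam* RNAi replicate 2 and 7 of 10 without *aramis* RNAi replicate 2. It gave 9 of 10 without *aramis* RNAi replicate 1 and 10 of 10 without *bam* RNAi replicate 1. All fold changes below are on the log2 scale, *aramis* RNAi over *bam* RNAi, with the DESeq2 size factors unless stated.

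**Figure D1:**
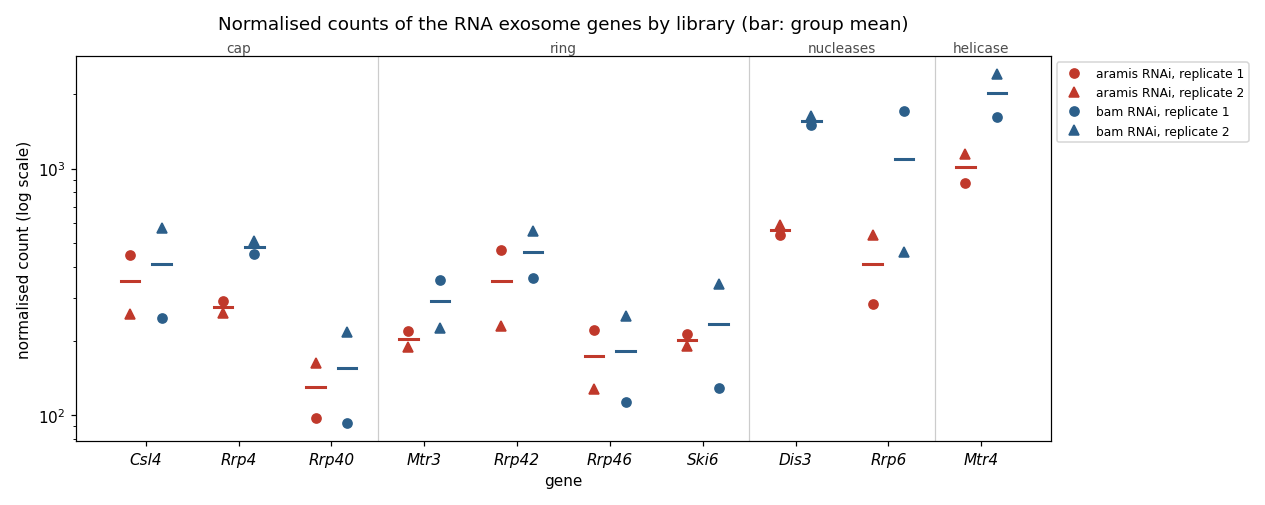
Normalised counts (log scale) of the 10 RNA exosome genes, with *aramis* RNAi libraries in red to the left of *bam* RNAi libraries in blue, circles for replicate 1, triangles for replicate 2 and bars for group means. For *Dis3* both *aramis* RNAi libraries (537 and 593) lie below both *bam* RNAi libraries (1496 and 1632), while for *Csl4*, *Rrp40*, *Rrp42*, *Rrp46*, *Ski6* and *Rrp6* the groups overlap.

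Among the 10 members, the 2 nuclease genes had the fold changes furthest below 0. The ring gene *Rrp45*, which is not among the 10, was further below 0, at -2.14. *Dis3* (FBgn0039183; chromosome 3R, 24333433 to 24337248, plus strand, dm6, longest transcript of 3588 nt in 5 exons) encodes the processive exoribonuclease at the exit of the ring, which also has an endonuclease domain. It was counted at 537 and 593 (normalised) in *aramis* RNAi, against 1496 and 1632 in *bam* RNAi. The groups were well separated and both pairs of replicates were close. Means were 565 ± 39.6 for *aramis* RNAi, against 1564 ± 96.2 for *bam* RNAi (SD, n = 2 each), so the *aramis* RNAi level was 36.1% of the *bam* RNAi level. The fold change was -1.47 (SE 0.41, 95% interval -2.28 to -0.66, DESeq2 adjusted p = 0.00525; edgeR adjusted p = 0.0418). Leaving out *aramis* RNAi replicate 1 or replicate 2 gave similar values of -1.37 and -1.53, but ended the call, at adjusted p of 0.327 and 0.167. The call held without *bam* RNAi replicate 1 (adjusted p = 0.00176) and without replicate 2 (adjusted p = 0.00479). In these fits the lone library of a group was assumed to vary like those of the other group. Calls among all tested genes also became fewer when either *aramis* RNAi library was left out. The value was 0.45 with germline-marker scaling (DESeq2 adjusted p = 0.403). Of the exon bases of *Dis3*, 4.15% overlap *CG6432* on the same strand, and *CG6432* was low, with at most 47.2 normalised counts in any library.

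*Rrp6* (FBgn0038269; chromosome 3R, 14882498 to 14886246, minus strand, 3233 nt in 5 exons) encodes the distributive exoribonuclease of the nuclear exosome. It was counted at 282 and 538 (normalised) in *aramis* RNAi, against 1719 and 458 in *bam* RNAi. Only *bam* RNAi replicate 1 was high, and the groups overlapped because *aramis* RNAi replicate 2 exceeded *bam* RNAi replicate 2. The fold change was -1.41 (SE 0.60, 95% interval -2.58 to -0.23, DESeq2 adjusted p = 0.0849). It rested on *bam* RNAi replicate 1, since it was -0.16 without that library (adjusted p = 0.891) and -2.08 without *bam* RNAi replicate 2 (adjusted p = 0.000281). Thus *Dis3* and *Rrp6* had nearly equal fold changes with very different support. The exons of *Rrp6* overlap *CG3631* on the other strand over 4.14% of their bases.

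*Mtr4* (FBgn0001986; chromosome 2L, 15752263 to 15755900, plus strand, 3585 nt in 2 exons) had the most counts of the 10 genes. It had 876 and 1145 normalised counts in *aramis* RNAi, against 1625 and 2425 in *bam* RNAi. The groups did not overlap, although the *bam* RNAi libraries were further apart from each other than the nearest libraries of the groups. Its fold change was -1.003 (SE 0.44, 95% interval -1.86 to -0.15), a level 49.9% of that in *bam* RNAi, and it did not pass the threshold (DESeq2 adjusted p = 0.0922). It passed with total-count scaling, at -1.37 (adjusted p = 0.0166), and without *bam* RNAi replicate 1, at -1.26 (adjusted p = 0.00939).

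**Figure D2:**
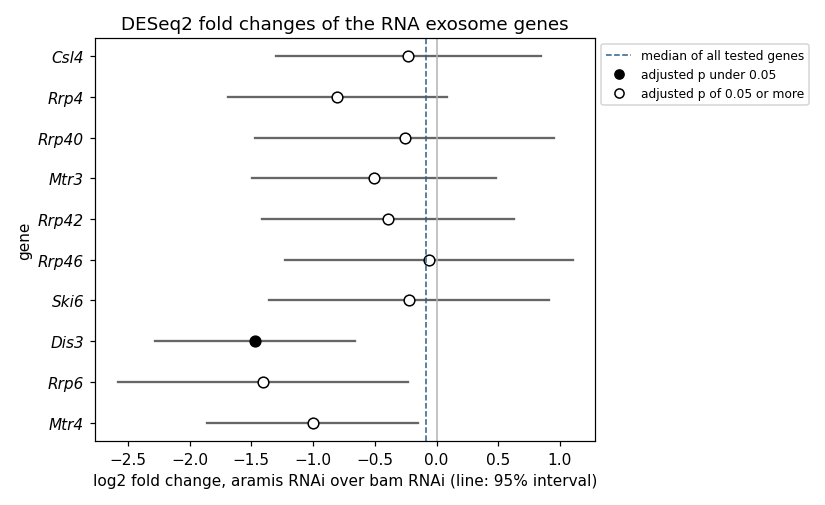
DESeq2 log2 fold changes of the RNA exosome genes, *aramis* RNAi over *bam* RNAi, as points with 95% intervals (horizontal lines). The filled point is *Dis3*, past an adjusted p of 0.05, open points are the other members, and the dashed line is the median of all tested genes at -0.09; the intervals of *Dis3*, *Rrp6* and *Mtr4* lie below 0 and those of the 7 cap and ring genes span it, while with germline-marker scaling all 10 fold changes are above 0.

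The cap proteins Csl4, Rrp4 and Rrp40 carry S1 RNA-binding domains and line the entrance of the channel. *Rrp4* (FBgn0034879; chromosome 2R, 23555018 to 23556217, minus strand, 1137 nt in 2 exons) reached 291 and 259 normalised counts in *aramis* RNAi, against 451 and 507 in *bam* RNAi. It was the most even of the cap and ring genes between replicates, and its groups did not overlap. Its difference was -0.80 (SE 0.45, 95% interval -1.69 to 0.08, DESeq2 adjusted p = 0.219). *Csl4* (FBgn0032346; chromosome 2L, 11122574 to 11123567, minus strand, 940 nt in 2 exons) had 446 and 257 in *aramis* RNAi, against 248 and 574 in *bam* RNAi. The high library was replicate 1 in *aramis* RNAi and replicate 2 in *bam* RNAi, and the spread within each group exceeded the difference of -0.23 between them (SE 0.55, DESeq2 adjusted p = 0.816). *Rrp40* (FBgn0260648; chromosome 2L, 1728732 to 1729762, plus strand, a transcript of 1031 nt in 1 exon) had the fewest counts of the 10 genes. It was counted at 97.5 and 162 (normalised) in *aramis* RNAi, against 92.6 and 218 in *bam* RNAi, with replicate 2 higher in both groups. The groups differed by -0.26 (SE 0.62, 95% interval -1.47 to 0.95, DESeq2 adjusted p = 0.814). Of the exon bases of *Rrp40*, 35.1% overlap *Eno* on the other strand. *Eno*, the gene of the glycolytic enzyme enolase, had 3204 and 4572 normalised counts in *aramis* RNAi, against 6677 and 2397 in *bam* RNAi. Whether counting used strand was not stated, so the counts of *Rrp40* are uncertain.

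The ring proteins Mtr3, Rrp42, Rrp46 and Ski6 (the fly Rrp41) have the RNase PH fold. *Mtr3* (FBgn0036916; chromosome 3L, 19912405 to 19913715, minus strand, 1253 nt in 2 exons) reached 219 and 189 normalised counts in *aramis* RNAi, against 354 and 227 in *bam* RNAi. Its groups did not overlap, but the gap between the nearest libraries was smaller than the distance between replicates of either group. Their difference was -0.51 (SE 0.50, DESeq2 adjusted p = 0.531), and 7.98% of its exon bases overlap *Prp3* on the other strand. *Rrp42* (FBgn0034065; chromosome 2R, 16014908 to 16016050, plus strand, 981 nt in 4 exons) had 469 and 230 in *aramis* RNAi, against 359 and 558 in *bam* RNAi. Its *aramis* RNAi libraries lay on both sides of *bam* RNAi replicate 1, and the fold change was -0.39 (SE 0.52, DESeq2 adjusted p = 0.650).

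*Rrp46* (FBgn0037815; chromosome 3R, 10413301 to 10414242, plus strand, 819 nt in 3 exons) reached 222 and 127 normalised counts in *aramis* RNAi, against 113 and 252 in *bam* RNAi. Both *aramis* RNAi values lay between the *bam* RNAi values. The fold change of -0.06 was the smallest of the members (SE 0.59, 95% interval -1.23 to 1.10, DESeq2 adjusted p = 0.956). *Ski6* (FBgn0032487; chromosome 2L, 13221397 to 13222429, minus strand, 911 nt in 1 exon) had 213 and 190 in *aramis* RNAi, against 128 and 342 in *bam* RNAi. Its *aramis* RNAi libraries were alike and again lay between the *bam* RNAi libraries, with a fold change of -0.22 (SE 0.58, 95% interval -1.36 to 0.91, DESeq2 adjusted p = 0.829). The intervals of these ring genes include more than a 2-fold difference in at least 1 direction, so the libraries do not show that their levels were alike. Exon overlaps with other genes covered 3.05% of *Rrp46*, 0.917% of *Rrp42* and 0.204% of *Ski6*.

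For 4 of 10 members, *Rrp4*, *Mtr3*, *Dis3* and *Mtr4*, both *aramis* RNAi libraries lay below both *bam* RNAi libraries, against 30.3% of all tested genes. The 7 cap and ring genes had fold changes between -0.80 and -0.06 with a median of -0.26, and the 3 others between -1.47 and -1.003. These 3 also have the longest transcripts of the set, at 3233 to 3588 nt against 819 to 1253 nt. Whether the fold changes of both sets differ was not tested.

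The difference between replicates was set beside transcript length. In *aramis* RNAi, 6 of 7 cap and ring genes were higher in replicate 1, all but *Rrp40*, and 3 of 3 longer genes were higher in replicate 2. In *bam* RNAi, 6 of 7 cap and ring genes were higher in replicate 2, all but *Mtr3*, with a median log2 ratio of replicate 1 to replicate 2 of -1.16. Of the 3 longer genes in *bam* RNAi, *Dis3* and *Mtr4* were also higher in replicate 2 and only *Rrp6* in replicate 1, with a median of -0.13. The same lengths and ratios over 7671 genes averaging at least 50 normalised counts had a Spearman's rho of -0.470 in *aramis* RNAi and 0.313 in *bam* RNAi, as a description across genes of 1 pair of libraries each. With offsets for length in each library, *Dis3* was at -1.42 (DESeq2 adjusted p = 0.00373), *Rrp6* at -1.33, *Mtr4* at -0.98 and *Rrp46* at -0.13. The median over the members was then -0.53, against -0.45 without offsets. What transcript length contributed to the fold changes was not tested.

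**Figure D3:**
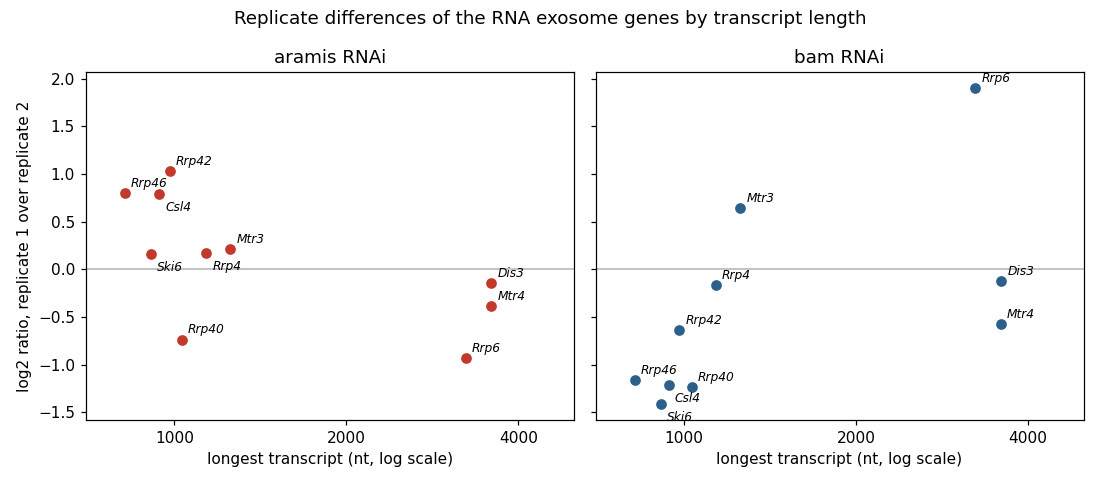
Log2 ratio of replicate 1 to replicate 2 of each RNA exosome gene against the length of its longest transcript (nt, log scale), in *aramis* RNAi (left) and *bam* RNAi (right). In *bam* RNAi the genes near 1000 nt fall mostly below 0 and *Rrp6* stands at 1.91, while in *aramis* RNAi *Rrp42* is the highest at 1.03 and *Rrp6* the lowest at -0.93.

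Levels of different genes were compared per length, as TPM, counts divided by transcript length and scaled to a common total per library. The order of the members within a group was read without tests. In *aramis* RNAi the highest were *Csl4* at 41.6 ± 10.7 TPM and *Rrp42* at 39.4 ± 14.5 TPM, followed by *Mtr4* at 32.5 ± 10.2, *Rrp4* at 27.4 ± 1.23, *Ski6* at 25.1 ± 1.23 and *Rrp46* at 23.7 ± 6.23 TPM (SD, n = 2 each). The lowest were *Mtr3* at 18.4 ± 0.456, *Dis3* at 18.04 ± 3.54, *Rrp6* at 14.9 ± 8.23 and *Rrp40* at 14.7 ± 6.90 TPM. Only the steps from *Rrp4* to *Ski6* and from *Rrp46* to *Mtr3* separated both libraries of the higher gene from both of the lower one.

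In *bam* RNAi the order began with *Mtr4* at 90.8 ± 22.1 TPM, *Rrp42* at 75.1 ± 20.4, *Dis3* at 70.3 ± 1.75, *Csl4* at 70.0 ± 37.0 and *Rrp4* at 67.9 ± 3.06 TPM (SD, n = 2 each). It ended with *Rrp6* at 55.2 ± 46.5, *Ski6* at 41.2 ± 25.2, *Mtr3* at 37.6 ± 12.9, *Rrp46* at 35.6 ± 18.1 and *Rrp40* at 24.1 ± 13.0 TPM. No neighbours in this order were separated. By group mean *Rrp40* was the lowest in both groups, and the highest member exceeded it 2.83-fold in *aramis* RNAi and 3.77-fold in *bam* RNAi. In *aramis* RNAi replicate 1, however, *Rrp6* was lower (9.07 against 9.82 TPM). In *aramis* RNAi replicate 2, *Mtr3* (18.8) and *Rrp46* (19.3) were below *Rrp40* (19.6). In *bam* RNAi replicate 2, *Rrp6* (22.3) and *Mtr3* (28.5) were below *Rrp40* (33.3). *Dis3* was the eighth of 10 in *aramis* RNAi and the third of 10 in *bam* RNAi.

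**Figure D4:**
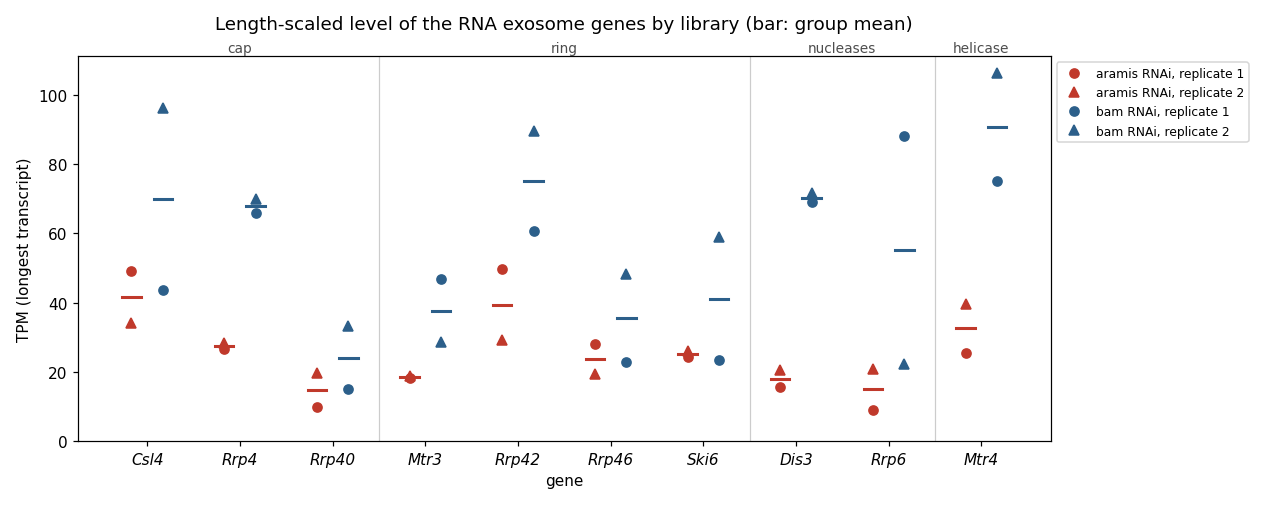
Level per length (TPM, linear axis from 0) of the 10 RNA exosome genes, *aramis* RNAi in red to the left of *bam* RNAi in blue, circles for replicate 1, triangles for replicate 2 and bars for group means. Within *aramis* RNAi the group means run from 14.7 to 41.6 TPM and within *bam* RNAi from 24.1 to 90.8 TPM. TPM is scaled to a common total per library, and the distance between red and blue depends on that scaling. The median TPM of the 7 cap and ring genes differed by -0.95 (log2, *aramis* RNAi over *bam* RNAi). With the DESeq2 size factors the median fold change of these 7 genes was -0.26. The mean of *Rrp40* is the lowest in both, but *Rrp40* is not the lowest in every library.

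A ratio of genes within a library does not depend on the scaling of the libraries. *Dis3* stood at 0.586 and 0.792 times the median TPM of the 7 cap and ring genes in *aramis* RNAi, against 1.58 and 1.21 times in *bam* RNAi. Relative to the median mRNA level of these 7 genes, *Dis3* was thus lower in both *aramis* RNAi libraries. The 7 leave out the ring gene *Rrp45*, whose fold change of -2.14 was further below 0 than that of *Dis3*. *Mtr4* stood at 0.956 and 1.53 times that median in *aramis* RNAi, against 1.71 and 1.80 times in *bam* RNAi, also without overlap but with a narrow gap. *Rrp6* stood at 0.342 and 0.798 times in *aramis* RNAi, against 2.01 and 0.378 times in *bam* RNAi, so its groups overlapped. These ratios were formed after the fold changes were seen, have 2 libraries a group and carry no test. They set transcripts of 3233 to 3588 nt against transcripts of 819 to 1253 nt, without offsets for length. What transcript length contributed to them was not tested.

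**Figure D5:**
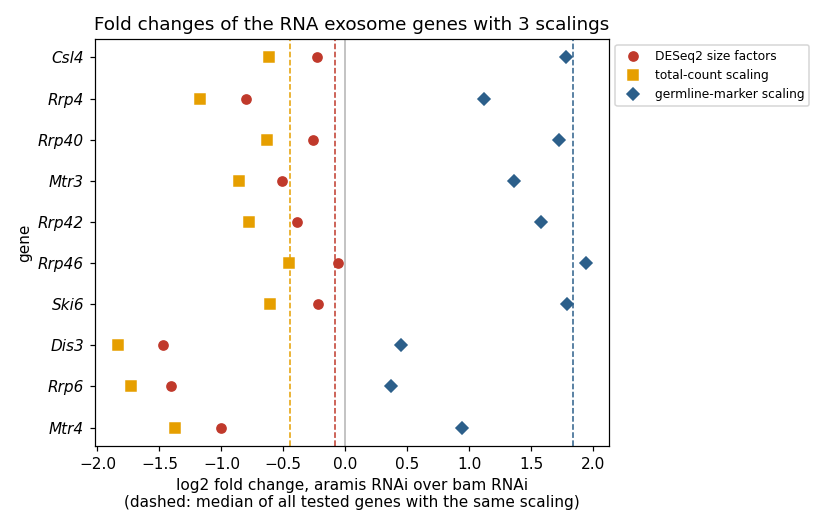
Log2 fold changes of the 10 RNA exosome genes, *aramis* RNAi over *bam* RNAi, with the DESeq2 size factors (red circles), total-count scaling (orange squares) and scaling to the germline markers (blue diamonds). Dashed lines are the median of all tested genes with each scaling, at -0.09, -0.45 and 1.83; all 10 genes lie below 0 with the DESeq2 size factors and with total-count scaling and above 0 with germline-marker scaling, where *Rrp6* at 0.37 and *Dis3* at 0.45 are the lowest.

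A further ring gene, *Rrp45* (FBgn0030789; chromosome X, 16789405 to 16791266, minus strand, 1647 nt), is not among the 10. It reached 34.9 and 90.8 normalised counts in *aramis* RNAi, against 404 and 150 in *bam* RNAi. The groups did not overlap but replicates differed more than 2-fold in both. This difference of -2.14 passed the threshold (SE 0.66, DESeq2 adjusted p = 0.0123). It did not pass without *aramis* RNAi replicate 1, at -1.58 (adjusted p = 0.397), or without *bam* RNAi replicate 1, at -1.26 (adjusted p = 0.376). Its exons overlap *Sap30* on the other strand over 14.6% of their bases.

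Of 35 genes listed for the pathways around the exosome, *Rrp45* included, 33 were tested. Past the threshold were 6, all lower in *aramis* RNAi, against 7.04% of all tested genes in that direction and 15.9% in either. In edgeR 3 of these passed, *Rrp45*, *Trf4-2* and *CG4622*, against 4.74% of all genes in that direction and 10.5% in either. These lists carry no test, and nothing is read from their counts beyond the genes named. None was higher past the threshold in DESeq2, against 8.9% of all tested genes, or in edgeR, against 5.74%. None was higher at an unadjusted p under 0.05 in DESeq2. Among 8 nuclear cofactors, 2 passed, against 7.04% of all tested genes lower past the threshold, and 7 had fold changes below 0, against 52.8%. Their median was -0.40, against -0.09 over all tested genes. *Trf4-2*, a relative of the yeast poly(A) polymerase that tags RNA for the exosome, reached 57.5 and 82.3 normalised counts in *aramis* RNAi, against 300 and 379 in *bam* RNAi. Both groups were even and far apart (log2 fold change -2.28, SE 0.52, DESeq2 adjusted p = 0.000417), and the call was lost only without *aramis* RNAi replicate 1 among the fits that left out 1 library (-2.02, adjusted p = 0.167). *CG4622*, the fly relative of human ZCCHC8, a partner of Mtr4, had 63.7 and 106 in *aramis* RNAi, against 541 and 136 in *bam* RNAi. Its fold change of -1.997 (SE 0.66, DESeq2 adjusted p = 0.0202) rested largely on *bam* RNAi replicate 1 and was -0.68 without it (adjusted p = 0.646). The cofactors *Rrp47* and *Mpp6*, named for yeast partners of Rrp6, were at -0.0011 and -0.31 and did not pass.

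Both relatives of yeast proteins that bring Mtr4 to maturing ribosomes, *wcd* and *CG1785*, had values below 0 without passing, against 52.8% of all tested genes below 0. *CG1785*, related to yeast Nop53, had 425 and 772 normalised counts in *aramis* RNAi, against 1875 and 1000 in *bam* RNAi. These did not overlap (log2 fold change -1.26, SE 0.50, DESeq2 adjusted p = 0.0580). Of the 5 genes of the cytoplasmic Ski complex and ribosome rescue, none passed in DESeq2, against 15.9% of all tested genes, or in edgeR, against 10.5%. Unadjusted p in DESeq2 was under 0.05 for 1 of them, against 14.1% of all tested genes lower at that level. That was *pelo*, which recognises stalled ribosomes, with 698 and 789 in *aramis* RNAi, against 1134 and 1598 in *bam* RNAi. The groups were separate, at a fold change of -0.88 (SE 0.43, DESeq2 adjusted p = 0.144).

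Of 6 exonucleases outside the exosome, 2 passed, *Rat1* and *pcm*, against 7.04% of all tested genes lower past the threshold. *Rat1*, the nuclear 5′-to-3′ enzyme, had 237 and 429 normalised counts in *aramis* RNAi, against 1543 and 446 in *bam* RNAi (log2 fold change -1.58, SE 0.59, DESeq2 adjusted p = 0.0441). Its nearest libraries almost touched, and it was at -0.42 without *bam* RNAi replicate 1 (adjusted p = 0.678). *pcm*, the cytoplasmic 5′-to-3′ enzyme related to Xrn1, had 516 and 1003 in *aramis* RNAi, against 2336 and 1546 in *bam* RNAi (log2 fold change -1.35, SE 0.48, DESeq2 adjusted p = 0.0324). In edgeR neither passed, at adjusted p of 0.0817 for *Rat1* and 0.0728 for *pcm*. The 3′-to-5′ enzymes *Dis3l2*, *Nbr*, *PNPase* and *Snp* did not pass, with fold changes of -0.23, -0.41, -0.76 and 0.41.

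Of 11 deadenylation and decapping genes, 10 had fold changes below 0, against 52.8% of all tested genes. Their median was -0.46, against -0.09 over all tested genes. Only *Edc3*, an enhancer of decapping, passed, against 7.04% of all tested genes lower past the threshold, so the share past the threshold stood near the background. *Edc3* had 161 and 416 normalised counts in *aramis* RNAi, against 2057 and 314 in *bam* RNAi. Its groups thus overlapped, and *bam* RNAi replicate 1 alone was high. It stood at -2.04 (SE 0.70, DESeq2 adjusted p = 0.0266), or at -0.12 without that library (adjusted p = 0.931). The calls of *CG4622*, *Rat1*, *pcm* and *Edc3* were also lost without either *aramis* RNAi library, at adjusted p of 0.0521 to 0.601, and that of *pcm* without *bam* RNAi replicate 1 (adjusted p = 0.115). With germline-marker scaling none of the 6 genes was past the threshold in DESeq2.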

How the data were processed

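The authors deposited 1 table of unscaled read counts by gene for each library. The submitters' processing notes name HISAT2 2.1.0, featureCounts 1.4.6 and DESeq2 1.24.0 with the dm6 genome. The roles of these tools, the strand setting and the annotation release are not given in the sources used here. Libraries came from a directional poly(A) kit with 13 minutes of fragmentation. Symbols, positions and lengths came from Ensembl release 115 (BDGP6, dm6 coordinates), which matched 16647 of 17023 identifiers. The other 376 held 5.52% to 6.66% of counts.

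Genes with at least 10 counts summed over 4 libraries (11128 genes) entered a Wald test in DESeq2 (version 1.42.0, R 4.3.3) with group as the only term, Benjamini-Hochberg adjusted over all genes with default independent filtering, and called at an adjusted p under 0.05. DESeq2 was used because the notes name it. Alternatives to these choices (edgeR version 4.0.16, other scalings, filters, length offsets from a loess with span 0.5, replicate block, each library left out) are reported last. Fits were checked on simulated data. An exact permutation test of 2 against 2 libraries cannot give p below 0.333. The 3-count floor was 0.179 to 0.231 CPM and covers counting error only. TPM used the longest transcript. The median values over gene lists carry no test.

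The rule for the members used gene symbols alone, but this gene family and the lists were chosen with earlier results of these data known. Named genes were all members, both targeted genes, up to 3 genes past the threshold in each pathway list or else the 1 with the largest absolute log2 fold change among those averaging at least 50 normalised counts, and the 5 genes nearest in profile to the members. *tj*, the cofactors and exonucleases that did not pass, the genes overlapping members and *wcd* were named after their values were seen. *Rexo5* and *Ge-1* of the lists were not analysed here, nor were *vas*, *nos* and *PPO1*.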

Additional observations from a re-analysis of the deposited data

How the results depend on the processing

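*Dis3* was the only member past the threshold, and it remained the only one in edgeR, with TMM scaling, no count filter, at least 10 counts in every library, no independent filtering or length offsets. With total-count scaling 4 members and 11 of 33 pathway genes were lower past the threshold, against 1619 of the 11128 genes tested. The median was then -0.82 over the members and -0.45 over all genes. With germline-marker scaling no member was lower and 7 were higher, against 46 and 6699 of the 11128 genes tested. The median was 1.47 over the members and 1.83 over all genes. *Csl4* was then at 1.78, *Rrp4* at 1.12, *Rrp40* at 1.73, *Mtr3* at 1.36, *Rrp42* at 1.58, *Rrp46* at 1.94, *Ski6* at 1.78, *Dis3* at 0.45, *Rrp6* at 0.37 and *Mtr4* at 0.94. In the same fit *pelo* was at 1.06, *CG1785* at 0.57, *pcm* at 0.50, *Rat1* at 0.21, *ais* at -0.39 and *bam* at 1.83. Of the 33 pathway genes tested, 0 were lower and 23 higher with this scaling. In edgeR 3 pathway genes were lower, against 6 in DESeq2.

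Without 1 library, members lower past the threshold numbered 0 to 2, pathway genes 0 to 12, and the median of the members ran from -0.72 to -0.37. *Csl4* ran from -0.70 to 0.49, *Rrp40* from -0.75 to 0.48, *Rrp42* from -0.97 to 0.051, *Rrp46* from -0.52 to 0.62, *Ski6* from -0.76 to 0.64, *ais* from -2.76 to -1.26 and *bam* from -0.36 to 0.18.

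The groups share replicate numbers, but nothing shows that these pair the libraries, whose deviations had a correlation of -0.161 over 11128 genes and -0.531 over the 7871 averaging at least 50 normalised counts. With the number as a replicate block, no member was past the threshold in DESeq2 (*Dis3* at -1.47, adjusted p = 0.0729), edgeR (*Dis3* at -1.49, adjusted p = 0.283; *ais* at -2.04, adjusted p = 0.0868) or DESeq2 with length offsets (*Dis3* at -1.40, adjusted p = 0.0506), so 0 were lower in each, with 1 pathway gene lower in each. Under the crossed pairing, chosen after seeing the data, 3 members and 11 pathway genes were lower, against 1372 of the 11128 genes tested.

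Genes past the threshold numbered 990 higher and 783 lower in the main comparison (55.8% higher). They numbered 639 and 528 in edgeR, 542 and 1619 with total-count scaling (25.1% higher), 6699 and 46 with germline-marker scaling (99.3% higher), 438 and 277 with the block in DESeq2, 191 and 191 with it in edgeR, 607 and 378 with block and length offsets, 1596 and 1372 crossed, and 85 to 1400 and 103 to 1180 without 1 library. The causes were not tested. The coding length from RefSeq proteins was not run. Ensembl coding length, chosen after seeing the data, and the shortest transcript gave a ratio of highest to lowest member, on mean TPM over all 4 libraries, of 2.98 and 2.60, against 3.18 with the longest transcript. Depth limits *Rrp40* most, with as few as 88 counts in a library.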

Other observations

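Among the 43 exosome and pathway genes tested, 9 were over 2-fold higher in *bam* RNAi replicate 1 than in replicate 2 (20.9%, against 14.8% of the 7871 tested genes averaging at least 50 normalised counts). These were *Rrp6*, *Rrp45*, *Trf4-1*, *CG4622*, *Pabp2*, *Rat1*, *twin*, *DCP1* and *Edc3*. Those over 2-fold higher in *bam* RNAi replicate 2 were *Rrp40*, *Rrp46*, *Ski6* and *Csl4*, 4 genes and all of them members of the cap or ring (9.30%, against 10.5%). In *aramis* RNAi only *Rrp42* exceeded 2-fold towards replicate 1, and *Rrp45*, *twin* and *Edc3* towards replicate 2.

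The mean profile of the 10 members over the 4 libraries, on centred log2 normalised counts with 0.5 added, lay at -0.24 and -0.34 for the *aramis* RNAi libraries, against 0.09 and 0.49 for those of *bam* RNAi. The genes nearest to it by Euclidean distance were *Gp210*, a nuclear pore membrane protein gene (distance 0.026), *Ir51b* (0.048), FBgn0029173 (0.053), *Bet1* (0.054) and *Orc5*, a subunit of the origin recognition complex (0.075). The nearest member was *Rrp4* at 0.283 and the farthest *Rrp6* at 1.88. Of 7861 genes compared, 200 were nearer than *Rrp4*.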
